A study of Mus musculus with 4 samples.

Results

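Expression of 9 genes that mark formative and primed pluripotency was examined in F123-ESCs, one by one and on each parental allele: Fgf5, Otx2, Pou3f1, Zic2, Sall2, T, Eomes, Lin28b and Fgf15. They were taken by gene symbol, and each had 1 entry among the 24026 genes measured. F123-ESCs are a male hybrid mouse embryonic stem cell (ESC) line with a maternal S129 (S129/Jae) and a paternal CAST (Cast) copy of each autosome. RNAseq of polyA RNA was done in 4 libraries of 1 condition, called replicates 1 to 4, all untreated and of the S129/CAST genotype. The cells were grown on mouse embryonic fibroblast feeders with LIF at 1000 U/ml, moved to gelatin without feeders for at least 2 passages, and collected about 48 h later. No sample of another pluripotent state or another line was compared, so the values describe this line in LIF, and nothing in the labels says whether the libraries came from separate cultures. The p-values therefore measure the spread between these libraries, which may be technical.

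Mouse pluripotent cells move from a naive state, held by LIF, through a formative state that resembles the epiblast soon after implantation, to a primed state in which genes of the germ layers are first transcribed. Otx2 and Pou3f1 (also called Oct6) are transcription factors of the early part of this transition, and the growth factor gene Fgf5 is the classical marker of the epiblast after implantation. T (Brachyury) and Eomes are T-box transcription factors of the primitive streak. Zic2 and Sall2 encode zinc finger transcription factors, Lin28b an RNA-binding protein that blocks the maturation of let-7 microRNAs, and Fgf15 a growth factor known from the embryonic brain and the intestine.

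The promoters of the T-box pair are shown because T passed the test between the alleles and Eomes did not (below). Each sequence is the 250 bases before the transcription start in RefSeq (GRCm38.p6), on the plus strand, and comes from the C57BL/6J reference, so it is neither of the alleles measured. RefSeq promoters were matched for 6 of the 9 genes. Capitals mark 4 short motifs searched on both strands. They were CTTTGA, the core that TCF and LEF factors bind, TATAAA, the usual form of the TATA box, CCAAT, the core of the CCAAT box, and GGGCGG, the core of the GC box.
T, chr17:8434173-8434422: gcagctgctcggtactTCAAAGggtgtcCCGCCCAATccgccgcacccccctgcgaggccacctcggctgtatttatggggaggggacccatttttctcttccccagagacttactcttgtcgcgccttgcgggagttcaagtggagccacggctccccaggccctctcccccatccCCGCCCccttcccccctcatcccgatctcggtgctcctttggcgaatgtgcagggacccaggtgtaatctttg
Eomes, chr9:118477939-118478188: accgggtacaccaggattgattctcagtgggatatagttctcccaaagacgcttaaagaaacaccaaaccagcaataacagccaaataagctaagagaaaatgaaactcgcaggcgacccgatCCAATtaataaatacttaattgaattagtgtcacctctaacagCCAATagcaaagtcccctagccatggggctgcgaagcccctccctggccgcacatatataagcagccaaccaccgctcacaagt
In T, the letters CTTTGA stood on the minus strand with their first marked base 234 bases before the start, and GGGCGG stood on the minus strand at 222 and 73 bases before it. The GC box at 222 overlaps the CCAAT at 218, so both form 1 run of capitals. Eomes had CCAAT at 127 and 84 bases before the start and none of the other 3 motifs. Of the 27025 promoters of this length, 14.1% held CTTTGA, 12.97% TATAAA, 34.5% CCAAT and 32.9% GGGCGG. The windows were 62.8% GC in T and 46.4% in Eomes, against a median of 52% over all promoters. These matches describe the reference only.

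The deposited values are RPKM of each allele, that is reads scaled to the length of the gene and to the total reads of the allele in the library, and come from reads that cover a SNP between the strains, so a level depends on the SNPs of a gene as well as on its RNA. The total of S129 and CAST reads per library, recovered from the values, lay between 34120416 in replicate 4 and 56627972 in replicate 1. All 10 ESC markers had at least 1 RPKM, led by Dppa5a (7111 ± 907 RPKM) and Zfp42 (512 ± 47 RPKM; SD, n = 4). CAST reads made up only 0.112% to 0.132% of the reads on the X chromosome, which in these male cells is of S129 origin. Of 12 feeder fibroblast markers, 9 had at least 1 RPKM. Their summed level was 185 to 232 RPKM in the libraries, of which Col1a2 (a collagen chain) gave 166 ± 18 RPKM and Postn (periostin) 15.4 ± 2.2 RPKM (SD, n = 4). The other 7 of these 9 lay between 1.17 and 11.4 RPKM, and Dcn, S100a4 and Lum at 0.659, 0.338 and 0.0462 RPKM. The part of feeder RNA in the levels and allelic values below was not tested. In bulk RNA, fewer cells that express a gene and less RNA per cell cannot be told apart.

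Lin28b and T had the highest levels of the 9 genes, each near 9 RPKM as the mean of both alleles, and Fgf15 the lowest. None reached 10 RPKM as this mean. Lin28b had 9.01, 9.60, 9.53 and 7.77 RPKM in replicates 1 to 4, and T had 7.995, 10.2, 8.83 and 8.50 RPKM. Their ranges overlapped, and Lin28b was the higher in 2 of 4 libraries. Sall2 followed with 2.95, 3.57, 3.47 and 3.07 RPKM, and Eomes with 2.63, 3.07, 3.35 and 2.62 RPKM. Sall2 was above Eomes in 4 of 4 libraries, although the ranges overlapped. Otx2 had 2.36, 2.45, 2.54 and 2.14 RPKM and Fgf5 1.57, 1.72, 1.69 and 1.15 RPKM. All libraries of Otx2 lay below all of Eomes and above all of Fgf5. Below 1 RPKM were Pou3f1 with 0.491, 0.671, 0.515 and 0.541 RPKM, Zic2 with 0.422, 0.592, 0.471 and 0.582 RPKM, and Fgf15 with 0.221, 0.394, 0.294 and 0.494 RPKM. Pou3f1 was above Zic2 in 3 of 4 libraries and Zic2 above Fgf15 in 4 of 4, with overlapping ranges in both pairs.

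The means were 8.98 ± 0.85 RPKM for Lin28b, 8.89 ± 0.96 for T, 3.26 ± 0.30 for Sall2, 2.92 ± 0.36 for Eomes, 2.37 ± 0.17 for Otx2, 1.53 ± 0.26 for Fgf5, 0.554 ± 0.080 for Pou3f1, 0.517 ± 0.084 for Zic2 and 0.351 ± 0.119 for Fgf15 (SD, n = 4 libraries each). Thus 6 of the 9 genes had at least 1 RPKM, beside 49.7% of all genes, and their median was 2.37 RPKM, beside 0.975 RPKM over all genes. Of the 8 pairs of neighbours in this order, 6 were in order in 4 of 4 libraries and 4 had ranges that did not overlap. An exact permutation test by sign flips within libraries, two-sided, gave p = 0.13 for those 6 pairs (adjusted p = 0.167 over the 8 pairs), the smallest that 4 libraries allow, p = 0.25 for Pou3f1 and Zic2 and p = 0.875 for Lin28b and T. The levels use the length of 1 transcript per gene. Dividing by the length of all annotated exons instead gave 5.35 RPKM for Lin28b, 1.46 for Otx2 and 0.201 for Fgf15, each over 1.5 times lower. The order then turned in 2 of the 8 pairs, with Lin28b below T (7.86 RPKM) and Otx2 below Fgf5 (1.53 RPKM).

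**Figure D1:**
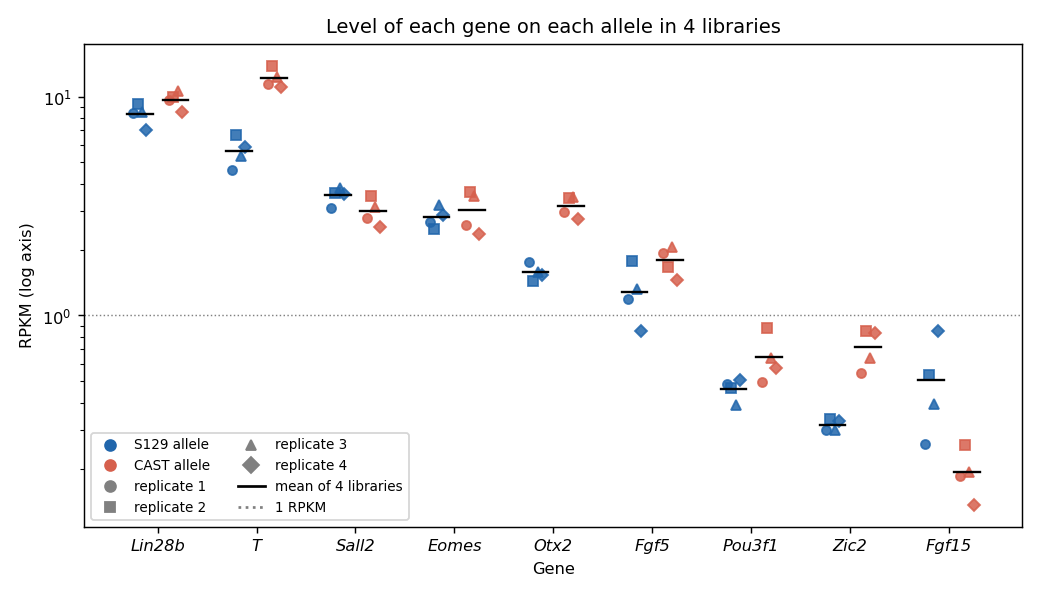
RPKM (log axis) of the 9 genes on the S129 allele (blue) and the CAST allele (red), with 1 symbol per library, a black bar for the mean of 4 libraries and a dotted line at 1 RPKM. For T, Otx2, Zic2 and Fgf15 the symbols of the alleles did not overlap; T ran from 4.62 to 6.68 RPKM on S129 and from 11.1 to 13.8 RPKM on CAST.

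Replicate 2 was the highest library for 6 of the 9 genes, replicate 1 the lowest for 5 and replicate 4 the lowest for 4. Over the 11946 genes with at least 1 RPKM, replicate 2 was highest for 30.5%, replicate 1 lowest for 24.2% and replicate 4 lowest for 55.1%. The coefficient of variation was 7.26% for Otx2 and 9.46% for Lin28b, against a median of 9.26% over those genes, and 33.9% for Fgf15. Fgf15 rests on 112 reads in all, for which counting alone gives 19.2%.

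The median of the 9 genes was below those of the other lists of pluripotency genes. All 15 naive genes had at least 1 RPKM, with a median of 63.1 RPKM, led by Tfcp2l1 (583 ± 38 RPKM) and Zfp42 (Rex1; 512 ± 47 RPKM; SD, n = 4). Of 18 other formative and primed genes, 14 had at least 1 RPKM, with a median of 13.3 RPKM. Dnmt3l, the cofactor of the de novo DNA methyltransferases, stood at 2142 ± 86 RPKM, and Tdgf1 (Cripto), the co-receptor of Nodal, at 488 ± 57 RPKM (SD, n = 4). Sox11, Sox3, Tcf15 and Zic5 of that list were under 1 RPKM. Genes of the primitive streak and of neural precursors were lower still. Of 14 other genes of the primitive streak and early mesendoderm, 4 had at least 1 RPKM, the highest being Wnt3 at 2.10 ± 0.21 and Fgf8 at 2.00 ± 0.43 RPKM (SD, n = 4), and the list median was 0.412 RPKM. Of 9 early neural genes only Nes (nestin), at 76.2 ± 8.5 RPKM (SD, n = 4), had at least 1 RPKM, and the next was Sox21 at 0.839 ± 0.069 RPKM (SD, n = 4).

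**Figure D2:**
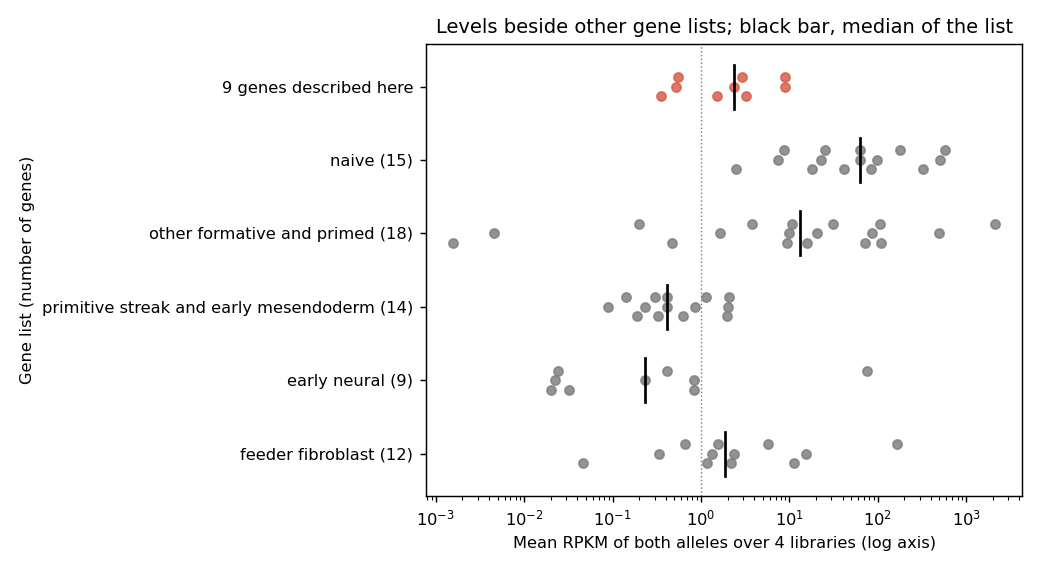
Mean RPKM of both alleles over 4 libraries (log axis) for the 9 genes (red) and for the genes of 5 other lists (grey), with a dotted line at 1 RPKM and a black bar at the median of each list. The median of the 9 genes, 2.37 RPKM, lies between those of the other formative and primed genes, 13.3 RPKM, and of the primitive streak genes, 0.412 RPKM.

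Within gene families, most of the 9 genes were not the most abundant paralog. Lin28a had 49.5 ± 7.0 RPKM (SD, n = 4), which exceeded Lin28b in each library; the difference in log2(RPKM+0.1) was 2.44 ± 0.09 (SD, n = 4). Sall4, the SALL factor of the ESC core network, had 78.4 ± 6.2 RPKM (SD, n = 4) and lay 4.54 ± 0.10 above Sall2 on that scale, and Sall1 had 7.95 ± 0.68 RPKM. Fgf4, the ligand that ESCs make to drive their own exit from the naive state, had 324 ± 32 RPKM (SD, n = 4), which is 7.64 ± 0.12 above Fgf5 in log2. Tbx3, a T-box factor of naive cells, had 23.0 ± 2.0 RPKM and Mga, a T-box protein that pairs with Max, 9.33 ± 0.59 RPKM (SD, n = 4), while 12 of the other T-box genes were under 1 RPKM. Otx2 was the leading gene of its family, with Crx at 0.0751 and Otx1 at 0.00161 RPKM, and Pou3f1 led its own, with Pou3f2, Pou3f3 and Pou3f4 each under 0.05 RPKM. Zic2 (0.517 RPKM) led the ZIC family as well, with Zic4 at 0.114, Zic1 at 0.0357 and Zic5 at 0.00157 RPKM. The differences between paralogs were computed after the levels had been seen, among 15 comparisons of this kind between genes, and each was in 1 direction in 4 of 4 libraries (exact permutation by sign flips, two-sided, p = 0.13, the lowest value 4 libraries can give; adjusted p = 0.134 over the 15).

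Between the alleles, 4 of the 8 genes tested differed, and all 4 were higher on CAST: T, Otx2, Zic2 and Lin28b. Among the 13341 genes whose alleles together reached 1 RPKM, 4182 or 31.3% were higher on CAST and 4187 or 31.4% higher on S129 (limma on differences within libraries, Benjamini-Hochberg adjusted p under 0.05). When the autosomal genes of every column were rescaled to one sum, the split became 5121 higher on S129 and 3072 higher on CAST, and the median log2 difference of all genes moved from -0.0034 to 0.098. In the main fit, the median log2 difference of the 8 genes was -0.43, beside -0.0034 over all tested genes. The median of its size was 0.43 for the 8 genes, beside 0.31 over all tested genes. Fgf15 did not reach the filter and was not tested in this fit. Values of the alleles did not overlap for 3 of the 8 tested genes, beside 45.6% of all tested genes.

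T, on chromosome 17 (ENSMUSG00000062327; 8434423 to 8442496 in mm10, plus strand), had the lowest log2 difference of the 8 genes. Its S129 allele had 4.62, 6.68, 5.37 and 5.90 RPKM in replicates 1 to 4, and its CAST allele had 11.4, 13.8, 12.3 and 11.1 RPKM. CAST was above S129 in every library and the ranges lay far apart. The means were 5.64 ± 0.87 and 12.1 ± 1.2 RPKM (SD, n = 4 libraries), with CAST between 1.88 and 2.46 times S129 in single libraries. The log2 difference, S129 minus CAST, was -1.10 (SE 0.074, limma adjusted p = 0.000401), and 4.87% of tested genes had one as low or lower. Zic2 was lower than T with a pseudocount of 0.01 RPKM (-1.14 against -1.11), on whole reads (-1.06 against -1.05) and without replicate 1 (-1.045 against -1.038), so T and Zic2 have no fixed order. Of the 3420 reads on T, 32.3% were of S129 (exact 95% binomial interval 30.7% to 33.8%, which covers counting error only).

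Eomes, the other T-box gene (ENSMUSG00000032446; chromosome 9, 118478212 to 118486132, plus strand), did not pass the test. The S129 allele had 2.67, 2.47, 3.21 and 2.88 RPKM and the CAST allele 2.59, 3.67, 3.50 and 2.36 RPKM. Each allele was the higher in 2 of 4 libraries and the ranges overlapped. The log2 difference was -0.088 (SE 0.15, limma adjusted p = 0.631), with means of 2.81 ± 0.32 and 3.03 ± 0.65 RPKM (SD, n = 4). Its sign rested on replicate 2, in which 41.3% of reads were of S129 (exact 95% binomial interval 36.6% to 46.0%), and without this replicate the difference was 0.067. It was 0.011 after the autosomal rescaling. The allelic difference of T was below that of Eomes in 4 of 4 libraries, with a gap of 1.01 ± 0.37 in log2 (SD, n = 4; exact permutation by sign flips, two-sided, p = 0.13, the lowest value 4 libraries can give), a comparison chosen after the values were seen. Among the other T-box genes that were tested, Tbx15 was higher on CAST (log2 difference -0.97, limma adjusted p = 0.0119) and Tbx20, at 0.671 RPKM, higher on S129 (0.33, limma adjusted p = 0.0277), while Tbx3, Mga and Tbx6 did not pass.

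Otx2, a homeobox gene on chromosome 14 (ENSMUSG00000021848; 48657677 to 48673819, minus strand), had 1.76, 1.44, 1.59 and 1.53 RPKM on S129 and 2.96, 3.45, 3.49 and 2.75 RPKM on CAST. The lowest CAST value exceeded the highest S129 value. The means were 1.58 ± 0.13 and 3.16 ± 0.37 RPKM (SD, n = 4), and the log2 difference was -0.96 (SE 0.098, limma adjusted p = 0.00148). The S129 share was 34.1% of 1164 reads (exact 95% binomial interval 31.4% to 36.9%). Otx2os1, an antisense transcript, overlaps 5112 bp of the Otx2 span but no base of the transcript whose length its RPKM uses. At 0.926 RPKM it had a log2 difference of -0.96 as well (SE 0.26, limma adjusted p = 0.0324). Otx2 has 11 annotated transcripts, and the sources used here do not give which exons were counted or whether strand was used. Whether Otx2 and Otx2os1 share reads was not tested.

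Zic2, also on chromosome 14 (ENSMUSG00000061524; 122475435 to 122479852, plus strand), had 0.299, 0.335, 0.300 and 0.330 RPKM on S129 and 0.544, 0.849, 0.642 and 0.834 RPKM on CAST. The alleles did not overlap. The S129 values lay close together, but each rests on only 14 to 21 reads. The means were 0.316 ± 0.019 and 0.717 ± 0.149 RPKM (SD, n = 4), with a log2 difference of -0.96 (SE 0.090, limma adjusted p = 0.00114). This rests on 14 to 51 reads per allele and library, 233 in all, of which 31.8% were of S129 (exact 95% binomial interval 25.8% to 38.2%). With a pseudocount of 1 RPKM in place of 0.1 the log2 difference was -0.38, and the call remained. With a variance trend in limma the SE was larger, 0.17 (adjusted p = 0.0033).

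Sall2, the second zinc finger gene and the third member on chromosome 14 (ENSMUSG00000049532; 52311172 to 52328762, minus strand), lay on the other side of 0. It had 3.11, 3.64, 3.81 and 3.60 RPKM on S129 and 2.78, 3.50, 3.14 and 2.54 RPKM on CAST. S129 was above CAST in each library, though the ranges overlapped. The log2 difference of 0.24 (SE 0.081) did not pass the threshold (limma adjusted p = 0.0568). The means were 3.54 ± 0.30 and 2.99 ± 0.42 RPKM (SD, n = 4), and 54.7% of 2956 reads were of S129 (exact 95% binomial interval 52.9% to 56.5%). It passed under 5 of the alternatives, among them the autosomal rescaling, with 0.34. Its allelic difference exceeded that of Otx2, on the same chromosome, in 4 of 4 libraries, by a log2 value of 1.20 ± 0.22 (SD, n = 4; exact permutation by sign flips, two-sided, p = 0.13, the lowest value 4 libraries can give), which was also chosen after the values were seen.

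Pou3f1, a POU domain gene of 1 exon on chromosome 4 (ENSMUSG00000090125; 124656807 to 124660655, plus strand), had 0.488, 0.466, 0.392 and 0.508 RPKM on S129 and 0.494, 0.876, 0.638 and 0.575 RPKM on CAST. CAST was the higher in 4 of 4 libraries, but in replicate 1 by 0.016 in log2 only. The log2 difference was -0.39 (SE 0.15, limma adjusted p = 0.0858), with 402 reads in all. An opposite-strand gene, Gm2164, overlaps 330 of the 3849 bases of the transcript whose length the RPKM of Pou3f1 uses. Whether the authors' counting used the strand is not given in the sources used here.

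Lin28b, on chromosome 10 (ENSMUSG00000063804; 45376620 to 45486395, minus strand), had the most reads of the 9 genes, 9264, and a small difference. The S129 allele had 8.39, 9.21, 8.51 and 7.01 RPKM, and the CAST allele 9.63, 9.99, 10.6 and 8.53 RPKM. CAST was above S129 in each library, yet the ranges overlapped. The means were 8.28 ± 0.92 and 9.68 ± 0.86 RPKM (SD, n = 4), and the log2 difference was -0.22 (SE 0.045, limma adjusted p = 0.0126). The call was lost without the pairing of alleles within libraries (adjusted p = 0.110), after the autosomal rescaling (log2 difference -0.12, adjusted p = 0.0947) and without replicate 3 (-0.20, adjusted p = 0.0520; all limma). A list of 13 symbols on the LIN28 and let-7 axis matched 9 genes, and the other 4 symbols, Tut4, Tut7 and their older names Zcchc11 and Zcchc6, matched none and were not analysed here. Calls over all tested genes went to S129 for 31.4% and to CAST for 31.3%. On this list, S129 was the higher allele in 7 of the 9, CAST in 1, and 1 did not pass. Its most abundant genes, Igf2bp1 (an RNA-binding protein gene repressed by let-7; 49.8 ± 4.2 RPKM, SD, n = 4) and Lin28a, were both higher on S129, with log2 differences of 0.16 (limma adjusted p = 0.0105) and 0.11 (limma adjusted p = 0.0483). Igf2bp2 had the largest difference towards S129 (0.69, limma adjusted p = 0.000550), and the let-7 target Hmga2 was the gene higher on CAST (-0.85, limma adjusted p = 5.3e-05).

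Of the ligands, Fgf5, on chromosome 5 (ENSMUSG00000029337; 98254184 to 98277030, plus strand), had 1.20, 1.78, 1.32 and 0.850 RPKM on S129 and 1.94, 1.67, 2.06 and 1.46 RPKM on CAST. CAST was the higher in 3 of 4 libraries, with replicate 2 the exception. The log2 difference was -0.47 (SE 0.16) and missed the threshold (limma adjusted p = 0.0539), with means of 1.28 ± 0.38 and 1.78 ± 0.27 RPKM (SD, n = 4). Without replicate 2 it was -0.66 (limma adjusted p = 0.00276). Fgf15, on chromosome 7 (ENSMUSG00000031073; 144896531 to 144900953, plus strand), had 0.258, 0.533, 0.395 and 0.852 RPKM on S129 and 0.184, 0.255, 0.193 and 0.136 RPKM on CAST. It was the only one of the 9 genes whose S129 values all lay above its CAST values, the lowest by 0.258 against 0.255 RPKM. Behind them were 80 reads of S129 and 32 of CAST, a share of 71.4% (exact 95% binomial interval 62.1% to 79.6%), with 59.1% in replicate 1 and 86.7% in replicate 4. In the fit without a filter, its log2 difference was 0.98 (SE 0.30, limma adjusted p = 0.0647). An opposite-strand gene, Gm26793, overlaps 761 of the 1753 bases of the transcript whose length the RPKM of Fgf15 uses.

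The receptors of these ligands were also measured by allele. Of 7 FGF receptors and co-receptors, 5 had at least 1 RPKM, led by Fgfr1 (95.6 ± 9.0 RPKM, SD, n = 4) and by Klb, the beta-Klotho co-receptor through which Fgf15 acts (9.22 ± 0.85 RPKM, SD, n = 4). Of the 6 tested, 4 were higher on CAST and none on S129, beside 31.3% and 31.4% of all tested genes. Klb had a log2 difference of -4.17 (limma adjusted p = 2.5e-06), Fgfr3 of -2.33 (0.00579), Fgfr2 of -0.60 (0.000372) and Fgfr1 of -0.51 (0.00130, all limma adjusted p). Of the 18 FGF ligands, 4 had at least 1 RPKM, and of the 5 tested only Fgf18, at 0.977 RPKM, passed, higher on CAST (-0.62, limma adjusted p = 0.00537). Fgf4 had a log2 difference of 0.061 (limma adjusted p = 0.208).

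**Figure D3:**
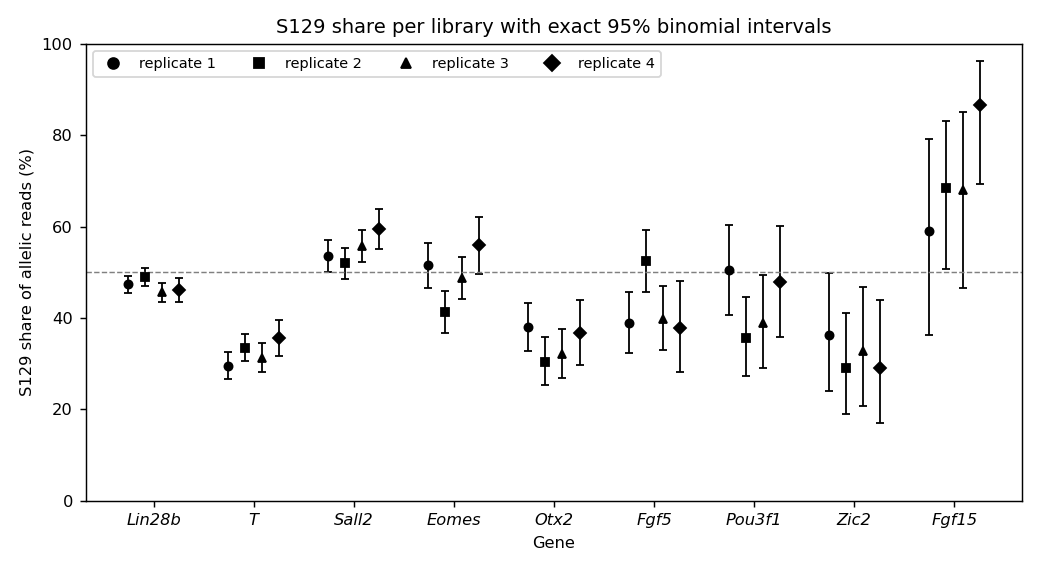
Share of S129 among the allelic reads of each gene in each library (percent), with exact 95% binomial intervals that cover counting error only and a dashed line at 50%. In all 4 libraries the intervals of T, Otx2 and Zic2 lie below 50%, and Fgf15 has the widest intervals, from 36.4% to 79.3% in replicate 1.

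**Figure D4:**
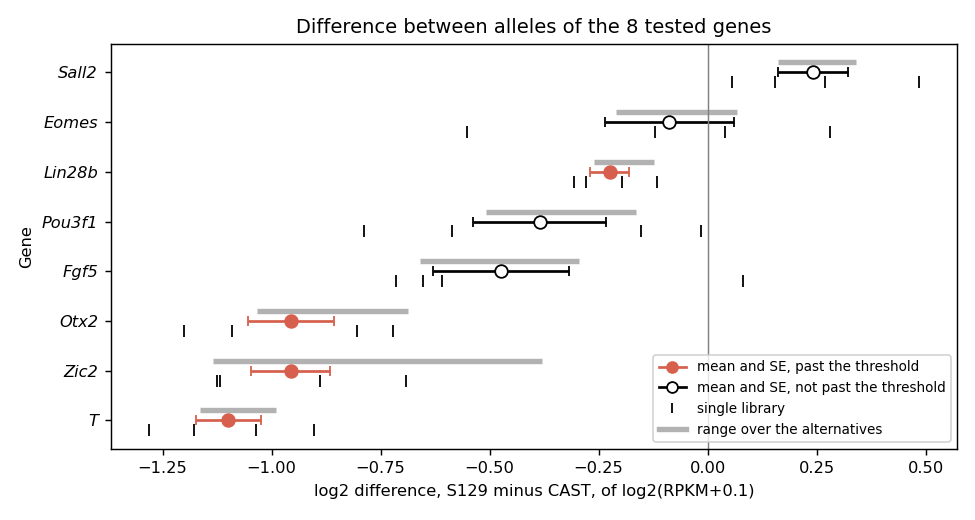
Difference between the alleles (S129 minus CAST, on log2(RPKM+0.1)) of the 8 tested genes. Circles (red, past the adjusted threshold) are the mean of 4 libraries with the limma SE, which draws on the variance of all tested genes. Ticks are single libraries and grey bars the range over the alternatives. The ranges of T, Otx2, Zic2 and Lin28b, and also of Fgf5 and Pou3f1, which did not pass, stay below 0, that of Sall2 stays above 0 and that of Eomes spans it.

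With the length of 1 transcript per gene, the order of the genes differed between the alleles. On S129, Lin28b was above T in 4 of 4 libraries, with a log2 difference of 0.55 ± 0.26 (SD, n = 4), and on CAST T was above Lin28b in 4 of 4, by 0.32 ± 0.12. The ranges were apart on both alleles. Otx2 was the fifth gene on S129 and the third on CAST, where its values overlapped those of Eomes and Sall2. Fgf15 was the seventh on S129 and the last on CAST. On CAST alone, 4 of the 8 neighbour pairs kept the order found with both alleles. These orders depend on the lengths used. With the length of all annotated exons, the mean of both alleles placed Lin28b below T (5.35 against 7.86 RPKM). It also placed Otx2 below Fgf5 (1.46 against 1.53 RPKM). The order on each allele was not recomputed with those lengths. They raise the length from 5402 to 9065 bases for Lin28b but only from 2046 to 2315 for T, alike on both alleles. The switch of Lin28b and T is therefore given for 1 transcript per gene only and may not hold with those lengths.

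The median S129 share of protein-coding genes was 50.2% to 51.1% on the 7 chromosomes that carry the 9 genes. Beside the 31.3% of all tested genes that were higher on CAST and the 31.4% higher on S129, the neighbourhoods of 500 kb on either side were mixed. Among the 6 tested genes there near T, 3 were higher on CAST and 1 higher on S129, and its nearest tested neighbours were Sft2d1 (log2 difference -0.54, limma adjusted p = 0.000969) and Pde10a (-0.40, limma adjusted p = 0.0685). Near Otx2, 4 of 6 were higher on CAST, including Tmem260 (-0.83, limma adjusted p = 0.00276), and none on S129. Otx2os1, which overlaps Otx2 and is therefore not a separate neighbour, is among these 4. Near Zic2, 3 of 8 were higher on CAST and 1 on S129, and Pcca, the gene to its right, had -2.64 (limma adjusted p = 0.000926) at 0.700 RPKM. Near Lin28b, 2 of 3 were higher on CAST, Popdc3 (-1.33, limma adjusted p = 0.0265) and Hace1 (-0.25, limma adjusted p = 0.0439). Fgf15 lies between Fgf4, which did not differ past the threshold, and Ccnd1 (cyclin D1), which was higher on CAST (-0.79, limma adjusted p = 0.000401), the opposite side to the reads of Fgf15. Near Sall2, whose S129 values were the higher, 5 of 14 were higher on CAST and 2 on S129. Near Pou3f1, 3 of 16 were higher on CAST and 4 on S129, near Fgf15 2 of 8 and 1, near Eomes 2 of 6 and 1, and near Fgf5 0 of 2 and 1. The nearest neighbours of Eomes were Gm17399 (-0.71, limma adjusted p = 0.00716) and Golga4 (0.066, limma adjusted p = 0.147).

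**Figure D5:**
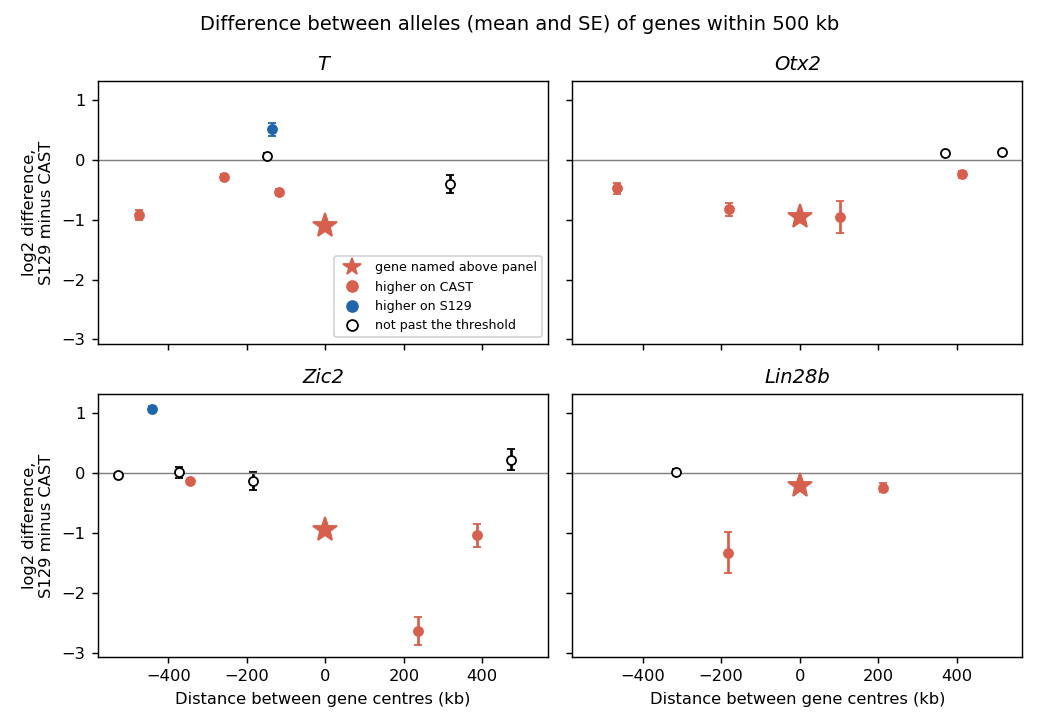
Difference between the alleles (S129 minus CAST, on log2(RPKM+0.1)) against the distance between gene centres in kb. Points are the mean of 4 libraries with the limma SE. They show tested genes within 500 kb of the ends of T, Otx2, Zic2 and Lin28b (stars). Filled red is higher on CAST, filled blue higher on S129 and open not past the threshold. Near Otx2 the filled circles are all red, 4 of 6, with the overlapping antisense Otx2os1 among them.

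For the 6 genes of at least 1 RPKM, which leaves out Pou3f1, Zic2 and Fgf15, the pattern over the 8 allele values of the libraries was compared with that of the 11945 other genes of at least 1 RPKM, by the Euclidean distance of log2(RPKM+0.1) values centred on the mean of the gene. The nearest genes were Ndn (distance 0.25) and Tom1 (0.30) to T, Prkacb and Chd9 (0.27 each) to Otx2, and Procr (0.27) and Rfx3 (0.31) to Fgf5. Nearest to Sall2 were Tob1 and Gps1 (0.14 each), to Eomes Ppp1r3b and Cog1 (0.29 each), and to Lin28b Dnaja2 (0.071) and Plcl2 (0.092). The columns share depth and library, so these distances are a description, and a like difference between the alleles is fixed by the measure.

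The counts of the other lists stand beside 31.3% of all tested genes higher on CAST and 31.4% higher on S129. The 14 tested formative and primed genes included 8 higher on CAST, 4 higher on S129 and 2 that did not pass. Wnt8a (-1.27, limma adjusted p = 0.000133) had the largest difference towards CAST. Foxd3, a forkhead factor, had the largest towards S129 (2.06, limma adjusted p = 1.7e-05), with 15.9 RPKM on S129 and 3.73 RPKM on CAST. Of the 15 naive genes, 4 were higher on CAST, led by Prdm14 (-2.44, limma adjusted p = 4.8e-06), and 5, with the X-linked Nr0b1 (8.12) among them, higher on S129, led among autosomal genes by Tcl1 (1.42, limma adjusted p = 2.1e-05). Of 6 tested primitive streak genes, Mesp2 was higher on CAST (-1.48, limma adjusted p = 2.5e-05) and Wnt3 and Sp5 higher on S129 (0.30, limma adjusted p = 0.0287, and 0.48, limma adjusted p = 0.0425). Of 3 tested early neural genes, Nes (-0.98, limma adjusted p = 0.000279) and Sox1 (-0.70, limma adjusted p = 0.00676) were higher on CAST. Of the 10 ESC markers, 4 were higher on S129, led by Nanog (0.68, limma adjusted p = 0.000143), and 4 higher on CAST, led by Esrrb (-0.26, limma adjusted p = 0.00218). Of the 10 feeder fibroblast markers tested, 7 were higher on S129, led by Thy1 (1.84, limma adjusted p = 0.000538), 2 higher on CAST, Col1a1 (-0.52, limma adjusted p = 0.00248) and Postn (-0.51, limma adjusted p = 0.00238), and 1 did not pass.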

How the data were processed

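RNAseq of 4 untreated F123-ESC libraries was analysed from RPKM values per gene and allele, which the authors deposited after STAR alignment to mm10 masked at the SNPs and division of reads by SNPsplit; submitters' notes also name FastQC and Trimmomatic (0.40). The gene counter, strand setting and annotation are not given in the sources used here. The deposited average per allele and its log10 were not used. The steps between values gave back whole reads (within 0.02 reads) for 99.5% of the 20243 genes above 0. Lengths were from GENCODE M21, except for 1004 genes whose length was found by searching for one that gave whole reads.

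Alleles were compared by limma (3.58.1, R 4.3.3) on log2(RPKM+0.1), as S129 minus CAST per library. The SE given for a log2 difference is that of limma, which draws on the variance of all tested genes as well. The fit covered 13341 genes whose alleles together reached 1 RPKM, and p-values were Benjamini-Hochberg adjusted over all of these. On this scale differences of low genes are understated. Both columns of a library are reads of that library, hence the pairing. Reads are not independent molecules, so intervals cover counting error only.

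The 9 genes and all lists were chosen with earlier results of these data known. Of the genes on the lists, 1 is not reported here and enters no list value. The rule for named genes took the 9 genes, the 2 most abundant genes of each list, the called genes of at least 1 RPKM with the largest difference in each direction, genes of the families, nearest tested neighbours, of which some are given as counts only, and the 2 genes most alike; Sox1, Fgf18, Dcn, S100a4, Lum, the genes under 1 RPKM in the formative list, Fgfr2, Fgfr3 and genes that overlap one of the 9 were chosen after their values were seen. Alternatives were other pseudocounts and filters, no replicate block, rescalings, a variance trend, exon-union lengths, medians and each library left out; undivided whole reads and each allele alone were added after seeing the data. The recovery of reads and limma were tested on simulated data.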

Additional observations from a re-analysis of the deposited data

Results flagged for a closer look

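The S129 share of Fgf5 in replicate 2 stood far from the other libraries. It was 52.5% (exact 95% binomial interval 45.7% to 59.3%, 114 S129 and 103 CAST reads), against 38.9%, 39.9% and 37.8% in replicates 1, 3 and 4. The gap divided by the range exceeded Dixon's 95% critical value for 4 libraries. Of 36 quantities tested in this way, 1 exceeded it, and at 1 in 20 chance gives 1.8.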

How the results depend on the processing

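Over 100 recomputed allelic differences of the 8 tested genes, 87 kept direction and side of the threshold, 3 lost the call, 8 gained it and 2 reversed. The 3 losses were of Lin28b: without the replicate block (adjusted p = 0.110, log2 difference -0.22), after autosomal rescaling and without replicate 3; the calls of T, Otx2 and Zic2 held in all alternatives in which each was tested, which for Otx2 and Zic2 excludes the filter of 5 RPKM. The reversals were of Eomes, to 0.011 after autosomal rescaling and within a range of -0.21 to 0.067 with each library left out. Fgf5 gained the call with a pseudocount of 1 RPKM (-0.29, adjusted p = 0.0421), with a variance trend (adjusted p = 0.0406) and without replicate 2; Sall2 gained it under 5 alternatives. Without the pairing, the calls fell to 3292 for S129 and 3133 for CAST, and 3 of the 8 genes were called. On the CAST allele alone, 4 of the 8 neighbour pairs in the order of levels were kept, and with exon-union lengths 6 were kept. Of 81 recomputed levels, 65 moved by less than 1 SD and 16 by more. Fgf15 rests on as few as 4 reads in a column, which limits its allelic values most. The cause of these changes was not tested.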
